A study of Drosophila melanogaster with 6 samples.

Results

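The mRNAs of 10 genes that pattern the ends, the gut and the head of the *Drosophila melanogaster* embryo were compared between embryos that inherited a mutated maternal Zelda and wild-type embryos. The genes were *tor*, *tll*, *hkb*, *cad*, *byn*, *fkh*, *srp*, *cnc*, *croc* and *ems*. They were chosen by function and by their position on the large autosomes, with earlier results of these data known. Each was found in the table by its symbol. All 10 were present among 16596 loci, and all 10 were among the 6265 loci of chromosome arms 2L, 2R, 3L and 3R that had at least 1 FPKM in either genotype. FPKM is a read level scaled to transcript length and to the mapped reads of the library, so genes of different length can be compared. It is a relative level, so a difference between genotypes also depends on the other mRNAs present in each.

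Poly(A) RNA was sequenced from embryos picked by hand at stage 5, when cell membranes grow in around the blastoderm nuclei, in 3 samples of zldZnF2 and 3 samples of w1118. The zldZnF2 embryos were laid by females homozygous for a point mutation that replaces a cysteine of the second zinc finger of Zelda (ZLD). The *zld* mRNA loaded into these eggs therefore encoded the mutated protein. This is a single allele, made by Cas9 editing of the endogenous gene. The w1118 strain carried wild-type *zld* and served as the control. The deposited table holds 1 FPKM per locus and genotype, which stands for the 3 samples together. These values carry no spread between samples and no depth, so the differences below are given without replicate error. No test was made here, and the results of the authors' own test in the same table were not used.

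Zelda is a maternally supplied activator that binds enhancers across the genome before and during the onset of zygotic transcription. The embryo's poles are specified by the receptor tyrosine kinase Torso, whose mRNA is made in the ovary and loaded into the egg. Torso is activated only at the poles, where Ras and MAP kinase signalling relieves repression by Capicua and Groucho and allows the zygotic genes *tll* and *hkb* to be transcribed. Together with the homeodomain protein Caudal, whose mRNA is both loaded into the egg and transcribed later at the posterior, these factors turn on the genes that set aside the gut. The head is subdivided in parallel by anterior genes that respond to Bicoid.

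*cad* stood apart from the other genes. It had 21.4 FPKM in zldZnF2 embryos, against 77.6 FPKM in w1118 embryos, so the mutant level was 27.6% of the control level. *tor*, the Torso receptor itself, had 21.7 FPKM in zldZnF2 embryos and 42.5 FPKM in w1118 embryos, or 51.0% of the control level. Both mRNAs are known to be loaded into the egg by the mother. The 8 others lay between 77.0% (*tll*) and 151% (*fkh*) of their level in w1118.

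Differences are given below as the log2 ratio of zldZnF2 over w1118, after 0.1 FPKM was added to both values. On this scale *cad* was at -1.85, and a lower ratio was found at only 4.17% of the 6265 loci. *tor* was at -0.97, just inside the 2-fold limit, with 11.2% of loci below it. *cad* was thus the only member lower by at least 2-fold, 1 of 10, and 10.7% of all loci were lower by that much. No member was higher by at least 2-fold, where 14.6% of all loci were. With a limit of 1.5-fold, 2 members were lower (*cad* and *tor*), against 19.8% of loci, and 1 was higher (*fkh*), against 24.0% of loci. The counts of members past either limit were thus close to the shares of all loci, or below them. The median log2 ratio of the 10 genes was 0.09 and that of all loci was -0.00.

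**Figure D1:**
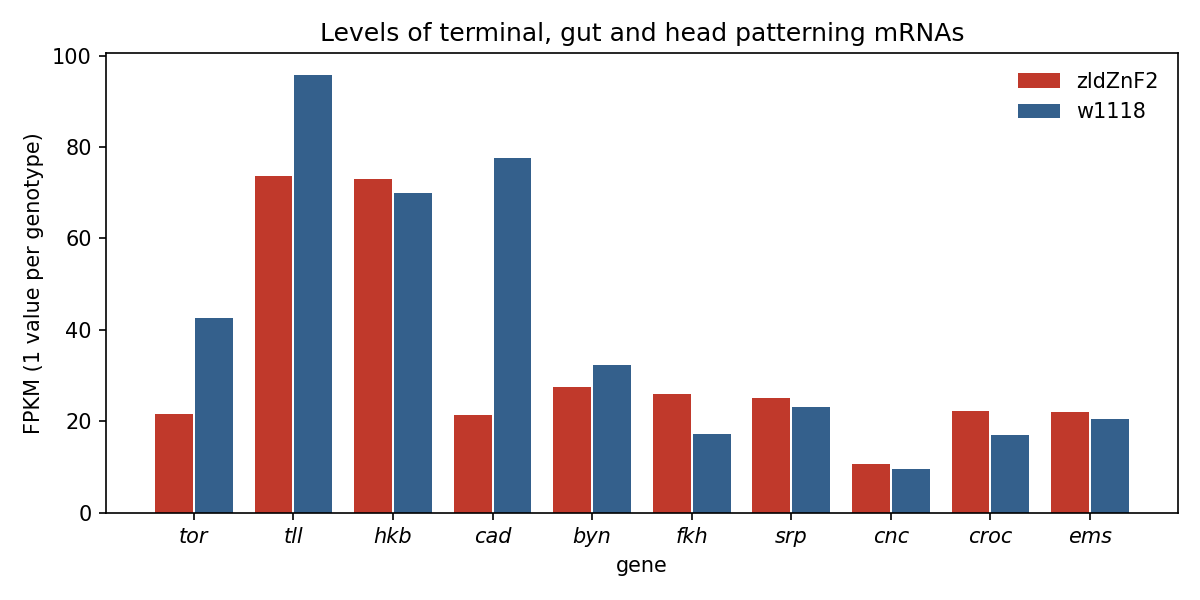
Level of each of the 10 mRNAs in FPKM (vertical axis, linear, from 0), with the zldZnF2 value as the left bar and the w1118 value as the right bar of each pair. Each bar is the single deposited value of a genotype, so there are no error bars. *cad* (21.4 and 77.6 FPKM) and *tor* (21.7 and 42.5 FPKM) show the widest gaps in proportion to their level.

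The receptor gene *tor* (FBgn0003733) lies on the minus strand of 2R, from 7705183 to 7709184 of the dm6 assembly. Its annotated transcripts share a single start site and the locus in the table has exactly the annotated ends, so its value comes from an undivided gene. In a published classification of maternal mRNA decay that accompanies the study, *tor* is in class IV, the mRNAs removed by the zygotic pathway. The class IV loci with at least 1 FPKM in either genotype, 877 in number, had a median log2 ratio of -0.40. The ratio of *tor* was lower than that median, and 18.2% of class IV loci were lower still. None of the other 9 members is in a class of that list.

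The posterior regulator *cad* (FBgn0000251) lies on the plus strand of 2L, from 20770731 to 20783135. The annotation gives it 3 transcripts from 2 start sites, and its value sums them. The table therefore does not separate the mRNA that was loaded into the egg from the mRNA that the embryo transcribed. Since whole embryos were sequenced, fewer cells with the mRNA and less mRNA per cell cannot be told apart, for this and every other gene. In zldZnF2, *cad* was at 0.987 times the FPKM of *tor* and at 0.293 times that of *hkb*. In w1118 it was at 1.83 times *tor* and at 1.11 times *hkb*.

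The targets of the Torso pathway were close to their control levels. *tll*, an orphan nuclear receptor of the terminal gap class, had 73.7 FPKM in zldZnF2 embryos and 95.8 FPKM in w1118 embryos, a log2 ratio of -0.38. *hkb*, a zinc finger repressor that limits the mesoderm at both ends, had 72.9 FPKM in zldZnF2 embryos and 69.8 FPKM in w1118 embryos, a log2 ratio of 0.06. *tll* was thus at 1.01 times the level of *hkb* in zldZnF2 and at 1.37 times in w1118. Both are compact genes of 3R with a single annotated transcript, *tll* (FBgn0003720) from 30852315 to 30854400 and *hkb* (FBgn0261434) from 4345015 to 4346646. *tll* was the most abundant mRNA of the set in both genotypes, and *hkb* had rank 2 in zldZnF2 and rank 3 in w1118.

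The gut genes were mostly level as well, with *fkh* the highest ratio of the 10. *fkh*, which encodes the fly FoxA protein of the foregut, hindgut and salivary gland primordia, had 25.9 FPKM in zldZnF2 embryos and 17.1 FPKM in w1118 embryos, a log2 ratio of 0.59. A ratio below that of *fkh* was found at 76.2% of all loci. *byn*, the Brachyury-type T-box factor of the hindgut, had 27.5 FPKM in zldZnF2 embryos and 32.3 FPKM in w1118 embryos, a log2 ratio of -0.23. These genes act in the same posterior primordium, and their ratios lay on opposite sides of 0. *fkh* was at 0.940 times the FPKM of *byn* in zldZnF2 and at 0.531 times in w1118.

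*srp*, the GATA factor that specifies the endodermal midgut, the fat body and blood cells, had 25.0 FPKM in zldZnF2 embryos and 23.1 FPKM in w1118 embryos. Its log2 ratio was 0.12, inside the range of -0.44 to 0.54 that holds the middle 50% of all loci. The *srp* locus also holds the noncoding gene *CR44133*, and the deposited value is that of both. *srp* (FBgn0003507) lies on 3R from 15986152 to 16004085 with 7 annotated transcripts from 4 start sites. *fkh* (FBgn0000659) lies on 3R from 28580976 to 28585264.

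*byn* (FBgn0011723) is annotated on 3L from 11927693 to 11935919, but its row in the table carries a region of 88228 bases, from 11850645 to 11938872. The same region is given for 9 loci, each with its own FPKM, so it marks a block of overlapping assembled transcripts and is not the extent of *byn*. How reads were divided among the overlapping transcripts of that block is not known.

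The head genes were all slightly higher in zldZnF2 embryos. *croc*, a FoxC-type gene expressed at the anterior tip, had 22.2 FPKM in zldZnF2 embryos and 17.0 FPKM in w1118 embryos, a log2 ratio of 0.38. *ems*, a homeodomain gene of the head gap class, had 22.1 FPKM in zldZnF2 embryos and 20.4 FPKM in w1118 embryos, a log2 ratio of 0.11. *cnc*, a bZIP factor of the mandibular and labral segments, had 10.6 FPKM in zldZnF2 embryos and 9.63 FPKM in w1118 embryos, a log2 ratio of 0.14. The differences of *ems* and *cnc* were under 2 FPKM.

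*cnc* (FBgn0262975, 3R, 23185580 to 23226711) is the most complex gene of the set, with 16 annotated transcripts from 10 start sites. The head-specific form and the broadly expressed longer forms of *cnc* share 1 value in the table, so a difference in a single form would not be seen. Its row also carries a region wider than the gene, which is given for 3 loci. *croc* (FBgn0014143, 3L, 21474133 to 21476479) and *ems* (FBgn0000576, 3R, 13901853 to 13904620) each have a single annotated transcript, and the locus has the annotated ends.

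Ordered by level, the zldZnF2 embryos held *tll*, *hkb*, *byn*, *fkh*, *srp*, *croc*, *ems*, *tor*, *cad* and *cnc*, from 73.7 down to 10.6 FPKM. In w1118 embryos the order was *tll*, *cad*, *hkb*, *tor*, *byn*, *srp*, *ems*, *fkh*, *croc* and *cnc*, from 95.8 down to 9.63 FPKM. *cad* thus had rank 9 in zldZnF2 and rank 2 in w1118, *tor* rank 8 in zldZnF2 and rank 4 in w1118, and *fkh* rank 4 in zldZnF2 and rank 8 in w1118. From *byn* to *cad*, 7 genes of zldZnF2 spanned only 27.5 to 21.4 FPKM. Without a spread between samples it cannot be said which neighbours in either order differ. Summed over the set, zldZnF2 embryos had 323 FPKM and w1118 embryos 405 FPKM. Without *tor* and *cad* the sums were 279.9 FPKM in zldZnF2 and 285.2 FPKM in w1118, so these genes account for most of the difference.

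**Figure D2:**
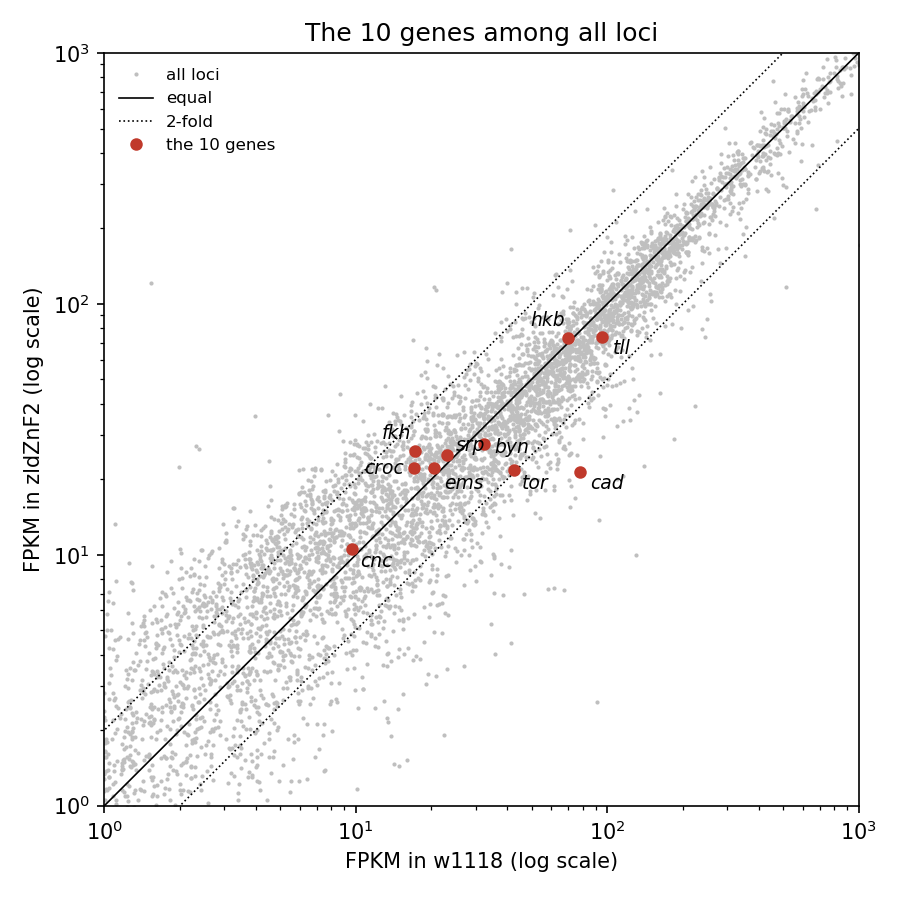
FPKM in zldZnF2 (vertical axis, log scale) against FPKM in w1118 (horizontal axis, log scale), with the 10 genes in red. The other loci are those of the 4 arms with at least 1 FPKM in either genotype and a value above 0 in both. Both axes start at 1 FPKM, and loci outside the drawn range are not shown. The solid line marks equal levels and the dotted lines a 2-fold difference. *cad* lies below the lower dotted line, *tor* just above it, and the 8 other genes lie along the solid line inside the cloud of loci.

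The members of the Torso pathway were examined around *tor*. Of 23 genes besides *tor*, 6 are on the X chromosome, where every locus is listed at 0 in both genotypes, and these were not read. Among them are *phl* and *Dsor1*, which encode the Raf and MEK kinases. *tsl*, needed to activate the receptor, was below 1 FPKM in both genotypes. Of the 16 genes of the 4 arms with at least 1 FPKM in either genotype, 2 were higher by at least 2-fold, none was lower, and 14 were within 2-fold. The share higher is below the 14.6% of all loci, so it is no result about the pathway. Their median log2 ratio was 0.07, beside -0.00 over all loci.

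*Sos* and *sty* were the higher genes. *Sos*, the exchange factor that activates Ras, had 22.8 FPKM in zldZnF2 embryos and 10.4 FPKM in w1118 embryos, a log2 ratio of 1.12. *sty*, which encodes the feedback inhibitor Sprouty, had 4.57 FPKM in zldZnF2 embryos and 1.38 FPKM in w1118 embryos, a log2 ratio of 1.65. *Ras85D* and *rl*, further genes of the relay, were within 2-fold. *Ras85D* had 258 FPKM in zldZnF2 embryos and 241 FPKM in w1118 embryos, and *rl*, the MAP kinase gene, had 63.4 FPKM in zldZnF2 embryos and 78.4 FPKM in w1118 embryos. *cic*, the repressor that the pathway inactivates, had 45.3 FPKM in zldZnF2 embryos and 72.8 FPKM in w1118 embryos, a log2 ratio of -0.68 and within 2-fold. Its partner *gro* had 471 FPKM in zldZnF2 embryos and 443 FPKM in w1118 embryos.

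*cad* and *tor* were then set beside the other maternal mRNAs that define the body axes. All 7 genes of that list with at least 1 FPKM had ratios below 0, with a median log2 ratio of -0.70, and 2 of them were lower by at least 2-fold, beside 10.7% of all loci. One of the 7, *hb* (161 FPKM in zldZnF2, 207 FPKM in w1118), is in decay class III, mRNAs degraded maternally and also transcribed. Its value is thus not of maternal mRNA alone, and it is also in the head and foregut list. *bcd*, whose protein represses the translation of *cad* mRNA in the anterior, had 9.22 FPKM in zldZnF2 embryos and 37.8 FPKM in w1118 embryos, a log2 ratio of -2.02. *pum*, a repressor of translation in the posterior, had 39.0 FPKM in zldZnF2 embryos and 85.0 FPKM in w1118 embryos, a log2 ratio of -1.12. The ratios of *cad* (-1.85) and *tor* (-0.97) fall within the range of this list, which runs from -2.02 to -0.26. *bcd* and *pum* are in decay class IV, as is *tor*.

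**Figure D3:**
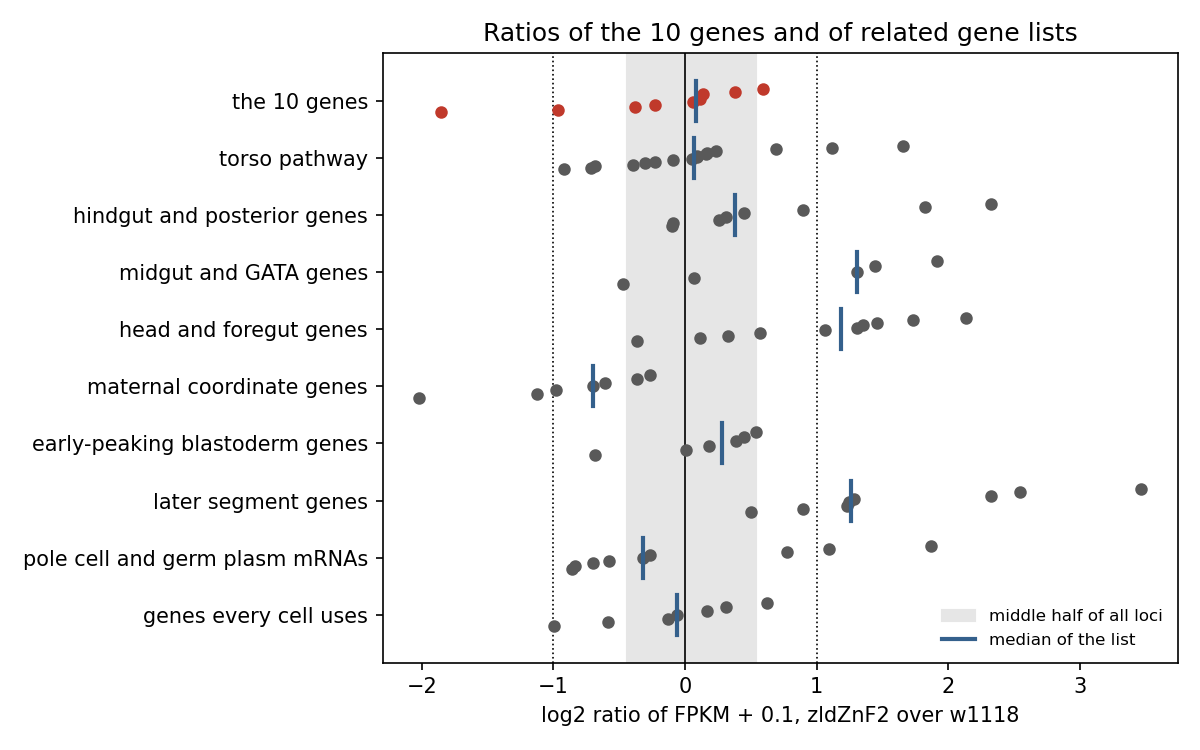
Log2 ratio of zldZnF2 over w1118 (horizontal axis, FPKM + 0.1) of the 10 genes (red) and of the genes of related lists with at least 1 FPKM in either genotype (grey), with the median of each row as a blue bar. The shaded band holds the middle 50% of all loci (-0.44 to 0.54) and dotted lines mark 2-fold. The median is 0.09 for the 10 genes, -0.70 for maternal coordinate genes and 1.27 for later segment genes. The muscle list, with ratios down to -6.01, and the eggshell list, with 1 gene past 1 FPKM, are not drawn.

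Other regulators were read in lists by tissue or gene family. The lists are not confined to genes of 1 territory, and *hh*, *wg*, *hb*, *nos* and *osk* each stand in more than 1 list. A count over a list is thus not a count of tissue markers. A gene that reached 1 FPKM only in the genotype where it was high had to differ, so each count is also given among genes with at least 1 FPKM in both genotypes, a restriction added after the values were seen. Of all 5524 loci kept in that way, 10.7% were higher and 7.28% lower by at least 2-fold. The shares also depend on level. Of loci with at least 1 FPKM in either genotype and a mean under 10 FPKM over the genotypes, 30.3% were higher and 18.1% lower. With a mean of at least 10 FPKM, 5.58% were higher and 6.49% lower. Of the hindgut and posterior list, 2 of 8 genes were higher by at least 2-fold and none was lower, beside 14.6% and 10.7% of all loci. *hh* reached 1 FPKM only in zldZnF2, and 1 of 7 was higher among genes kept in both. The 2 genes of the list below 1 FPKM in both genotypes (*Abd-B* and *otp*) had ratios below 0. *drm*, a zinc finger gene of the foregut and hindgut, had 8.32 FPKM in zldZnF2 embryos and 2.28 FPKM in w1118 embryos, a log2 ratio of 1.82. *hh*, the Hedgehog ligand, had 3.29 FPKM in zldZnF2 embryos and 0.575 FPKM in w1118 embryos, a log2 ratio of 2.33. *bowl*, the zinc finger partner of *drm* in the gut, had 4.65 FPKM in zldZnF2 embryos and 4.97 FPKM in w1118 embryos.

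Of the midgut and GATA list, 3 of 5 genes with at least 1 FPKM in either genotype were higher by at least 2-fold, beside 14.6% of all loci. *pnr* and *grn* reached 1 FPKM only in zldZnF2, and among genes kept in both genotypes 1 of 3 was higher. The 4 genes of the list on these arms below 1 FPKM in both genotypes (*GATAe*, *Hnf4*, *lab* and *sens*) all had ratios below 0. *pnr* and *grn*, which like *srp* encode GATA factors, had 2.72 and 1.56 FPKM in zldZnF2 embryos, against 0.645 and 0.512 FPKM in w1118 embryos, with log2 ratios of 1.92 and 1.44. *T48*, a membrane protein gene of gastrulation, had 7.18 FPKM in zldZnF2 embryos and 2.85 FPKM in w1118 embryos, a log2 ratio of 1.31. *GATAe*, which follows *srp* in the endoderm, was below 1 FPKM in both genotypes, at 0.0267 FPKM in zldZnF2 embryos and 0.0526 FPKM in w1118 embryos.

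Of the head and foregut list, 6 of 10 genes were higher by at least 2-fold and none was lower, beside 14.6% and 10.7% of all loci. The median log2 ratio of the list was 1.19. *Optix* and *erm* reached 1 FPKM only in zldZnF2, and among genes kept in both genotypes 4 of 8 were higher, with a median of 0.82. Of the 4 genes of the list on these arms below 1 FPKM in both genotypes, 1 had a ratio below 0 and 3 above. *Optix*, a Six-family homeodomain gene, had 2.06 FPKM in zldZnF2 embryos and 0.392 FPKM in w1118 embryos, a log2 ratio of 2.13. *erm*, a zinc finger gene of the anterior head, had 1.42 FPKM in zldZnF2 embryos and 0.357 FPKM in w1118 embryos, a log2 ratio of 1.73. *knrl*, the close relative of the gap gene *kni*, had 18.8 FPKM in zldZnF2 embryos and 6.75 FPKM in w1118 embryos, a log2 ratio of 1.46. *Dfd*, the Hox gene of the maxillary and mandibular segments, had 4.25 FPKM in zldZnF2 embryos and 1.60 FPKM in w1118 embryos, a log2 ratio of 1.35. The other higher genes were the most abundant of those counted. *opa* had 130 FPKM in zldZnF2 embryos and 62.0 FPKM in w1118 embryos, and *SoxN* had 62.8 FPKM in zldZnF2 embryos and 25.3 FPKM in w1118 embryos. *slp1*, a forkhead-domain gene like *croc* and *fkh*, had 83.7 FPKM in zldZnF2 embryos and 66.7 FPKM in w1118 embryos, a log2 ratio of 0.33. *oc*, *btd* and *gt*, further head genes, are on the X chromosome and were not read.

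Lists that follow embryo age were read beside these values, since maternal mRNAs decline and segment genes come on around this stage. Of the later segment genes, 6 of 8 were higher by at least 2-fold in zldZnF2 and none was lower, beside 14.6% and 10.7% of all loci. All of these higher genes but *nkd* had a mean under 10 FPKM, where 30.3% of all loci were higher. *hh* and *inv* reached 1 FPKM only in zldZnF2, and among genes kept in both genotypes 4 of 6 were higher. The 2 genes of the list below 1 FPKM in both genotypes (*gsb-n* and *H15*) had ratios below 0. The list had a median log2 ratio of 1.27 over the 8 genes and a summed level of 130.7 FPKM in zldZnF2 and 68.4 FPKM in w1118. They were led by *gsb*, with 13.2 FPKM in zldZnF2 embryos and 1.10 FPKM in w1118 embryos, and by *mid*, with 6.53 FPKM in zldZnF2 embryos and 1.04 FPKM in w1118 embryos. *hh*, given above, and *nkd*, with 26.6 FPKM in zldZnF2 embryos and 10.9 FPKM in w1118 embryos, followed. None of the 6 early-peaking blastoderm genes was past 2-fold. Their summed level was 8493 FPKM in zldZnF2 and 7612 FPKM in w1118, with *slam*, which is needed for cellularization, at 1927 FPKM in zldZnF2 and 1919 FPKM in w1118. Of the 6, 5 had ratios above 0 and 1 below, *bnk*, with 872 FPKM in zldZnF2 and 1398 FPKM in w1118. The values of *Sry-alpha* and *frs* are those of loci that also hold other genes. A difference in age and a difference in genotype cannot be told apart in these values.

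Markers of tissues that a stage 5 embryo lacks were also read. Of 9 muscle structural genes with at least 1 FPKM, 6 were lower by at least 2-fold in zldZnF2 and 2 were higher, beside 10.7% and 14.6% of all loci. The 6 lower genes reached 1 FPKM only in w1118 and the 2 higher genes only in zldZnF2. *Mlc1* and *Mf* are listed at 0 in zldZnF2 and had 6.34 and 4.92 FPKM in w1118. *Act57B* had 0.336 FPKM in zldZnF2 and 21.7 FPKM in w1118, and *Tm2* had 0.0198 FPKM in zldZnF2 and 3.59 FPKM in w1118. The higher genes were *Act87E*, with 10.6 FPKM in zldZnF2 and 0.614 FPKM in w1118, and *Prm*, with 1.91 FPKM in zldZnF2 and 0.896 FPKM in w1118. Actin genes are near copies of each other, so the values of *Act57B* and *Act87E* are uncertain. The summed level of the list was 518 FPKM in zldZnF2 and 556 FPKM in w1118, most of it *Tm1*, and without *Tm1* it was 13.3 FPKM in zldZnF2 and 46.3 FPKM in w1118. Of 9 eggshell genes, 4 are listed at 0 in zldZnF2 and 6 in w1118, and their summed level was 1.69 FPKM in zldZnF2 and 1.30 FPKM in w1118. The part of RNA from such tissues in the values of the 10 genes was not tested.

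The loci that flank the 10 genes were compared to see whether levels followed position. The nearest locus with at least 1 FPKM on each side gave 20 neighbours, of which 3 were higher and 5 were lower by at least 2-fold, beside 14.6% and 10.7% of all loci. Of the higher ones, *CG12071* and *pnr* reached 1 FPKM only in zldZnF2. Both neighbours of *tor* were lower. *CG34216*, 87 bases away, had 3.39 FPKM in zldZnF2 embryos and 7.68 FPKM in w1118 embryos, and *CG18812*, 7.62 kb away on the other side, had 24.7 FPKM in zldZnF2 embryos and 93.6 FPKM in w1118 embryos. On one side of *cad*, 4.52 kb away, *vari*, a septate junction scaffold gene, had 19.1 FPKM in zldZnF2 embryos and 44.9 FPKM in w1118 embryos. On the other side, 2.68 kb away, *dia*, the formin gene, had 18.6 FPKM in zldZnF2 embryos and 24.8 FPKM in w1118 embryos.

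**Figure D4:**
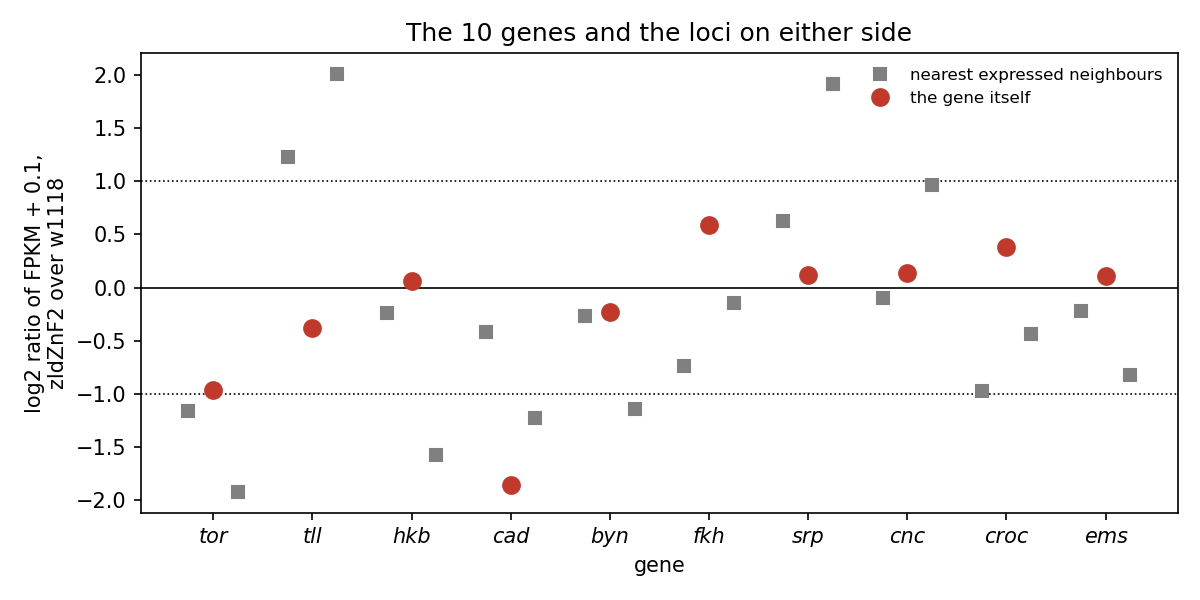
Log2 ratio of zldZnF2 over w1118 (vertical axis, FPKM + 0.1) of each of the 10 genes (red circles) and of the nearest locus with at least 1 FPKM on its left and right (grey squares). Dotted lines mark 2-fold. Both neighbours of *tor* lie below -1 and both neighbours of *tll* above 1, and *cad* is lower than either of its neighbours.

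Around *tll* the neighbours differed from the gene itself. *cindr*, an adaptor protein gene 25.3 kb away, had 13.2 FPKM in zldZnF2 embryos and 5.60 FPKM in w1118 embryos, and *CG12071*, 22.7 kb away, had 1.25 FPKM in zldZnF2 embryos and 0.236 FPKM in w1118 embryos. *pnr*, described above, was the nearest expressed neighbour on one side of *srp*, 22.0 kb away, with the weakly expressed *GATAe* between them at 5.02 kb from *srp*. These GATA factor genes thus lie in a row on 3R, with log2 ratios of 0.12 for *srp* and 1.92 for *pnr*, and with *GATAe* below 1 FPKM in both genotypes. *hh* lies 26.4 kb from the region of *cnc*, and these genes had log2 ratios of 2.33 and 0.14. The remaining neighbours past 2-fold were *CG11739* beside *hkb*, with 6.19 FPKM in zldZnF2 embryos and 18.6 FPKM in w1118 embryos, and *viaf* beside *byn*, with 47.2 FPKM in zldZnF2 embryos and 104.4 FPKM in w1118 embryos.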

How the data were processed

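Poly(A) RNA libraries were made from 6 samples of stage 5 embryos (3 zldZnF2, 3 w1118), grouped by title. As the methods state, single-end reads of 100 bp were quality-trimmed in Galaxy and aligned to dm6. The aligner was RNA-STAR 2.5.2b-0, transcripts were assembled by Cufflinks 2.2.1, and Cuffdiff compared the genotypes. In the table that the authors deposited, each locus has a single FPKM for each genotype. Strand and library normalization options are not given in the sources used here. The table also holds the authors' fold changes, test statistics, p-values and q-values, which were not used by choice. The FPKM values themselves allow no test, interval or detection limit.

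Log2 ratios were computed here from FPKM + 0.1. Loci at least 2-fold apart were counted in each direction among loci of the 4 large autosomal arms with at least 1 FPKM in either genotype. All 2716 loci of chromosomes X, 4 and Y are listed at 0. The 10 genes and the lists of related genes (11 lists, 131 of 133 symbols matched, 4 of them by synonym) were chosen with earlier results of these data known. Named were all 10 genes, up to 4 genes of each list past 2-fold with the largest ratios, and neighbours past 2-fold. *bowl*, *GATAe*, *slp1*, *slam*, *Ras85D*, *rl*, *cic*, *gro*, *phl*, *Dsor1*, *oc*, *btd*, *gt*, *inv*, *Tm1*, *Act87E*, *Prm*, *tsl*, *dia*, *opa*, *SoxN* and *Gapdh1* were added for their roles or values after the values were seen. *hb*, *bnk*, *Sry-alpha*, *frs*, *Hnf4*, *lab*, *sens*, *gsb-n*, *H15*, *Abd-B*, *otp*, *wg*, *nos* and *osk* were likewise added after the values were seen. Gene positions are those of Ensembl release 115, and decay classes those given with the study. With 2 values per gene no likeness of patterns was computed, and promoter motifs were not analysed here. The counting code was run on simulated data without noise, which checks the code and not the reliability of the counts. Python 3.11.15, NumPy 2.4.6, pandas 2.3.3 and Matplotlib 3.10.9 were used. Alternatives were other pseudocounts, 2 rescalings, other fold limits, other FPKM filters and loci of 1 gene.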

Additional observations from a re-analysis of the deposited data

How the results depend on the processing

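Under no pseudocount, a pseudocount of 1, centring on the median, an equal sum of FPKM and loci of 1 gene only, all 49 values of the 10 genes kept their sign, and the largest shift was 0.04 on the log2 scale. Neither a pseudocount nor the limit to loci of 1 gene can change a sign. The kept signs thus say nothing about the spread between samples. *srp* gives no value where only loci of 1 gene are kept. *tor* stayed between -0.97 and -0.94 and *cad* between -1.86 and -1.81. A fold limit of 1.5 gave 2 lower members and 1 higher, with 19.8% of loci lower and 24.0% higher. A limit of 3 kept *cad* and gave 5.40% of loci lower and 5.94% higher. Of 66 counts over the related lists, 2 moved by over 1.5 times, both with a pseudocount of 1, which left 1 higher gene each in the pole cell and muscle lists. Smaller changes were not counted as moved. With a pseudocount of 1 the higher genes fell from 6 to 4 in the later segment list. They fell from 6 to 5 in the head and foregut list and from 3 to 2 in the midgut and GATA list. Among genes with at least 1 FPKM in both genotypes, added after the values were seen, the hindgut and midgut lists had 1 higher gene each and the muscle list 0 higher and 0 lower. No paired analysis was possible because the table holds no values per sample, and for the same reason no sample could be left out. Depth is unknown, so values near 0 FPKM have no stated precision.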

Other observations

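Related regulators were also divided by level, in a comparison chosen after the values were seen. All 10 genes had a mean of at least 10 FPKM over the genotypes. Of the 29 genes of the hindgut, midgut, head and later segment lists with at least 1 FPKM in either genotype, 13 had such a mean and 4 of them (*opa*, *knrl*, *SoxN* and *nkd*) were higher by at least 2-fold in zldZnF2, with a median log2 ratio of 0.33. Of the 16 with a lower mean, 12 were higher, with a median of 1.40, but 6 of the 12 reached 1 FPKM only in zldZnF2. Of the 10 with at least 1 FPKM in both genotypes, 6 were higher, with a median of 1.27, beside 23.7% of all such loci. Over all loci, 5.58% with a mean of at least 10 FPKM were higher and 6.49% lower, and of those with a lower mean 30.3% were higher and 18.1% lower. Of 9 pole cell and germ plasm mRNAs none was lower by 2-fold and 2 were higher, beside 10.7% and 14.6% of all loci. *tud* had 8.25 FPKM in zldZnF2 embryos and 2.19 FPKM in w1118 embryos, and *vas* had 12.4 FPKM in zldZnF2 embryos and 5.74 FPKM in w1118 embryos. Of 7 genes that every cell uses, none was past 2-fold, the lowest being *Gapdh1* with 30.3 FPKM in zldZnF2 embryos and 60.4 FPKM in w1118 embryos.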
